A study of Mus musculus with 11 samples.

Results

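The terminal ileum of 5 naive SKG mice was profiled on 5 bead arrays that the labels place together in batch 3. These arrays, SKG replicates 4 to 8, were chosen by strain and batch and are 5 of the 11 arrays in the series. The mice were 8 to 12 weeks old and untreated, and the labels give strain, tissue and age but no sex, cage or litter. The SKG strain carries a point mutation in the T cell kinase ZAP-70 on a BALB/c background and develops arthritis after a microbial or fungal trigger. The other arrays are 3 SKG ilea of batch 1 and 3 BALB/c ilea, of which 2 are in batch 2 and 1 is in batch 3. No strains were compared here: the 5 SKG ilea were described by what they share and by how they differ from each other.

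The terminal ileum absorbs bile acids and fat, and its crypts hold Paneth cells, which secrete antimicrobial peptides, beside the stem cells. Goblet cells cover the surface with mucus, and lymphoid follicles called Peyer's patches lie in the wall. Epithelial cells here respond to bacteria that attach to them and to cytokines such as interleukin-22 and interferon gamma by making antibacterial proteins, fucosylated surface sugars and MHC class II molecules. A strip of whole wall also holds muscle, vessels, nerves and, at its outer edge, mesenteric fat.

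Of 25697 probes, 10753 (41.8%) had a detection score of at least 0.95 on all 5 arrays and were kept. They represented 8587 genes, each read by its brightest kept probe. All signals below are on the log2 scale after background correction and quantile normalisation, so that a difference of 1 is 2-fold, and SD is the standard deviation over the 5 animals. With 5 arrays the precision of an SD is low, and signals of different probes are not on a common scale, because each probe binds its target with its own strength. The raw medians of the arrays lay between 98.5 and 105.6, their highest signals between 15828 and 18365, and 12445 to 13201 probes were detected on each. Of the 5 ileal markers, 4 were kept: the bile acid binding protein Fabp6, both subunits of the basolateral bile acid exporter (Slc51a and Slc51b) and the hormone Fgf15. The bile acid uptake transporter Slc10a2 was not kept. The summed signal of the 4 was 28486 to 30647, and Fabp6 and Slc51a, the brightest of them, had SDs of 0.12 and 0.20. Slc51b read 11.33 in SKG replicate 6 and 12.9 to 13.2 in the other 4, and Fgf15 had an SD of 0.54. None of the 5 pancreatic acinar markers and none of the 4 mast cell markers on the array was kept. Of a wider list of mast cell genes, 10 were on the array and 3 were kept. In whole tissue, fewer cells of a type and less RNA per cell cannot be told apart.

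SKG replicate 6 stood apart from the other 4. Its median absolute difference from each of them was 0.40 to 0.45, with 935 to 1275 genes differing at least 2-fold, whereas pairs among the other 4 differed by 0.18 to 0.20, with 54 to 121 such genes. It held 51.7% of the summed squared deviation from the gene means, against 10.0% to 13.5% for each of the others. Its median bead error, 0.0890, was the highest of the 5, against 0.0814 to 0.0878 in the others. Its number of detected probes, 12445, was the lowest, against 12625 to 13201. Its raw median, 99.9, lay within the range of theirs. The part of these measures in the results was not tested. RNA integrity of single samples was not given beyond the minimum score stated in the labels, and its part in the results was not tested. Counts of variable genes were therefore also made without this animal.

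The typical gene differed little between the animals. The median SD was 0.268, and the 5th and 95th percentiles were 0.104 and 0.629. The beads of one probe on one array gave a median error of 0.0867, so the median gene's SD was 2.97 times its bead error. An SD of at least 0.5 was reached by 1007 genes, which is 11.7% of the kept genes, and 45 reached 1. Without SKG replicate 6 the median SD was 0.182 and 220 of the 8587 genes (2.56%) had an SD of at least 0.5, of which 184 also had one over all 5. Among the 1007 variable genes SKG replicate 6 was farthest from the median of the 5 in 840 (83.4%), on the high side in 458 and on the low side in 382, against 56.0% among all kept genes. Of the 1007, 504 lay above the median level and 503 below it. The SD differed with the level: the median SD of genes alike in mean was 0.217 around the 20 brightest genes and 0.303 around the histone gene H2ac11, whose mean was 6.17.

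**Figure D1:**
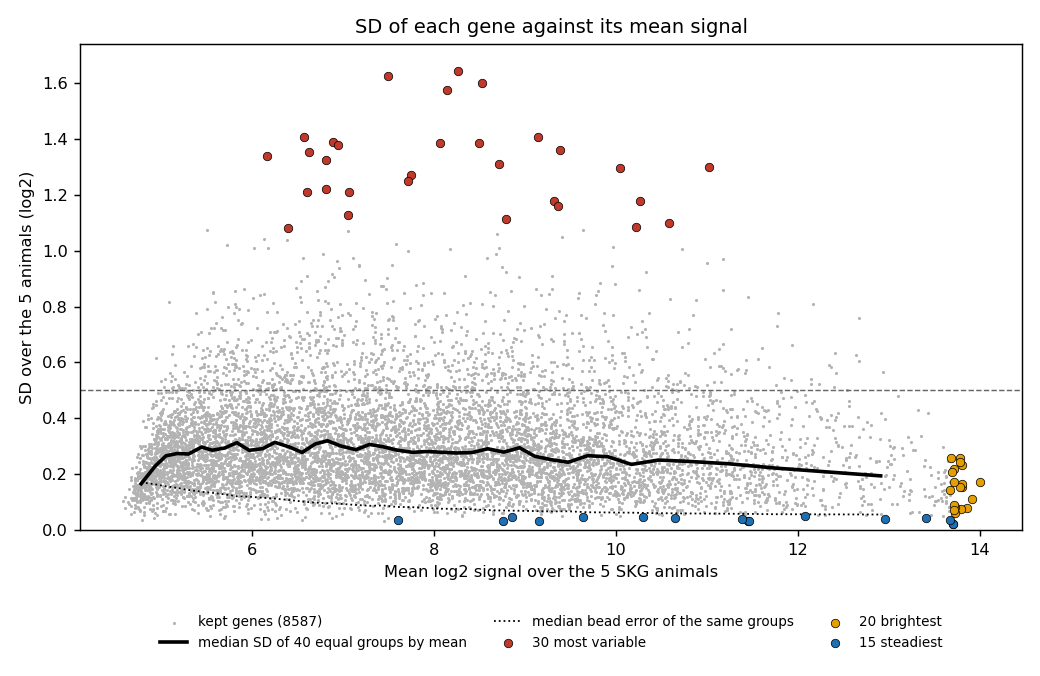
Each grey point is 1 of the 8587 kept genes, placed by its mean log2 signal over the 5 SKG animals (x axis) and its SD over them (y axis, log2); the dashed line marks an SD of 0.5. The 30 most variable genes (red) lie between means of 6.17 and 11.03, the 20 brightest (orange) all have an SD under 0.26, and the 15 steadiest (blue) lie below the dotted line of the median bead error.

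The brightest probes read housekeeping, epithelial and secretory genes. The 20 brightest genes had mean signals of at least 13.67, raw signals of 12948 to 16516, and SDs of 0.0225 to 0.259. Ribosomal proteins and translation factors were the most numerous, with Rplp1, Rps12, Rpl38, Rps26, Rps24 and the elongation factor Eef1a1. The mitochondrial ATP synthase was represented by Atp5g3, Atp5b and Atp5j2. Epithelial and secretory genes were Dbi, an acyl-CoA binding protein, Guca2a, the precursor of the fluid-secretion hormone guanylin, the epithelial keratin Krt8, the goblet cell lectin Zg16 and the defensin-related DEFCR-RS10. The iron store Fth1, the ubiquitin gene Ubb, Gm9294, LOC100047615 and Ubb-ps were also among them. Ubb-ps is annotated as a pseudogene of Ubb, and its probe and those of the ribosomal proteins can bind RNA of near-identical copies.

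Dbi held the top value of 14.07 in SKG replicates 4, 5, 7 and 8 and read 13.69 in SKG replicate 6. Guca2a read 13.96, 13.83, 13.33, 13.87 and 13.93 in SKG replicates 4 to 8, with the lowest value again in SKG replicate 6. Zg16 read 13.73, 13.68, 13.72, 13.69 and 13.71, and its SD of 0.0225 was the lowest of all 8587 genes. Signals this near the top of the scale have little room to differ, since quantile normalisation gives the same highest values to every array.

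The 30 most variable genes had SDs of 1.08 to 1.64, which were 8.44 to 24.6 times their bead errors. The gene just inside this group, BC050811, had an SD of 1.08 and the gene just outside it 1.07, so the limit marks no gap. In 21 of the 30, SKG replicate 6 was farthest from the median. The values of these 30 genes chose them and are given as a description. They fell into a few profiles over the 5 animals: histone H2A genes, genes that respond to microbes, MHC class II, fat genes, and genes in which SKG replicate 6 alone was high or low.

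**Figure D2:**
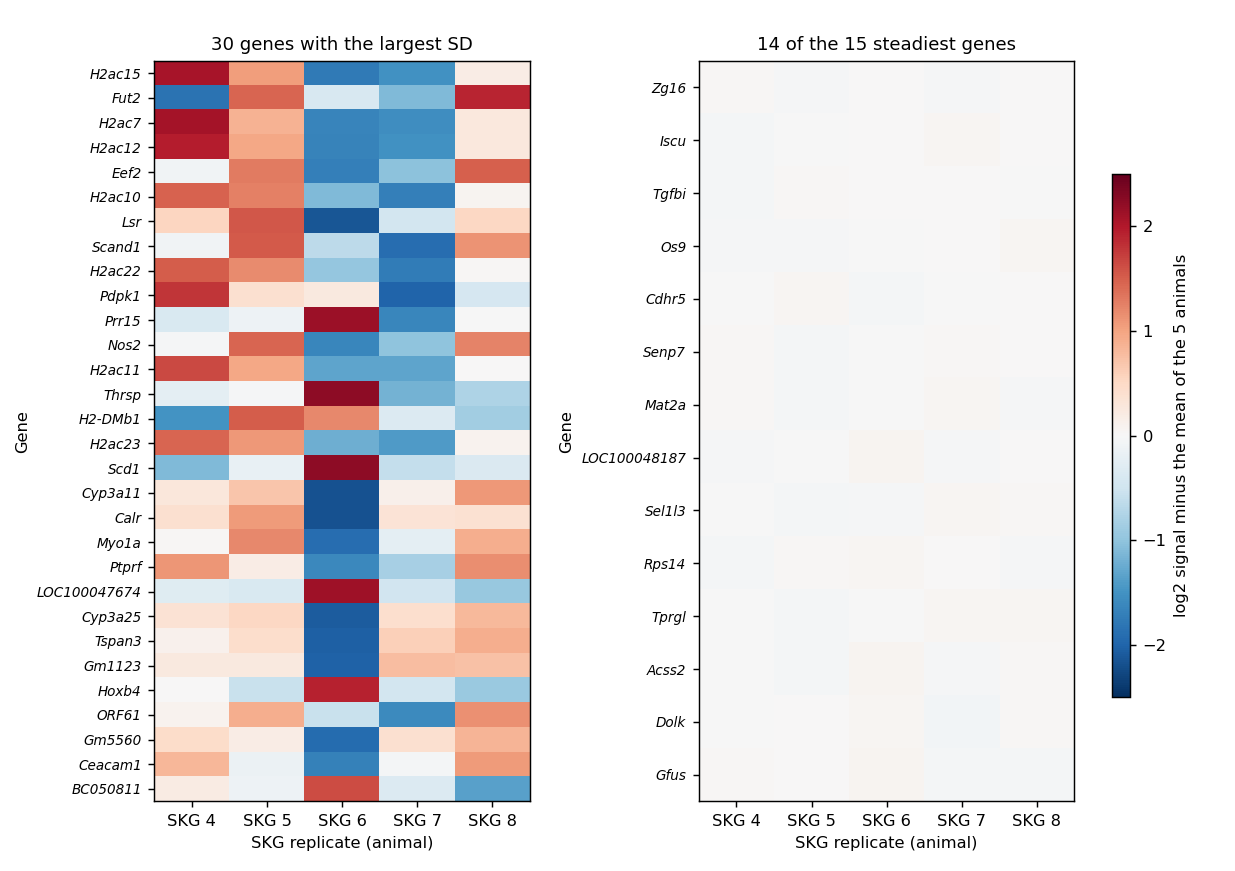
Colour gives the log2 signal minus the gene's mean over the 5 animals (red higher, blue lower, same scale in both panels) for the 30 genes with the largest SD (left) and 14 of the 15 steadiest genes (right), in SKG replicates 4 to 8 (columns). The H2A genes are red in SKG 4 and SKG 5 and blue in SKG 6 and SKG 7, while the steadiest genes show almost no colour.

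Histone H2A genes varied most. Histone H2A is a core protein of the nucleosome, and its replication-dependent genes lie in clusters on chromosomes 13 and 3 and are made in S phase as mRNAs that end in a stem loop in place of a poly(A) tail. H2ac15 had the largest SD of all genes, 1.64, and read 10.33, 9.30, 6.50, 6.74 and 8.44 in SKG replicates 4 to 8. SKG replicate 4 was thus the highest and SKG replicates 6 and 7 the lowest, a 14.2-fold spread. H2ac23, which had the highest mean among the variable H2A genes of chromosome 13, read 12.48, 12.11, 9.81, 9.61 and 11.11, in the same order except that SKG replicate 7 was the lowest. H2ac7, H2ac12, H2ac10, H2ac22 and H2ac11 were also among the 30 most variable genes, with SDs of 1.34 to 1.60.

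H2A genes followed each other closely. The profile of H2ac15, centred on its mean, differed from that of H2ac12 by 0.08 (root mean square over the 5 animals), from that of H2ac7 by 0.10 and from that of H2ac11 by 0.30, and these were its 3 nearest genes among those with an SD of at least 0.5. Of 11 H2A genes kept, 9 had an SD of at least 0.5 (11.7% of all kept genes did), with a median SD of 1.34, 10 were highest in SKG replicate 4, and 10 were lowest in SKG replicate 6 or 7. The H2A median deviation from the gene means was 1.48 in SKG replicate 4, 0.96 in SKG replicate 5, -1.10 in SKG replicate 6, -1.41 in SKG replicate 7 and 0.02 in SKG replicate 8. Without SKG replicate 6 the median SD was 1.29, so this pattern did not rest on that animal. H2ac18 read 8.05, 7.96, 8.71, 7.94 and 7.63, with its highest value in SKG replicate 6, and H2ac8 had an SD of 0.23. H2A coding sequences are nearly identical, so these probes can bind each other's targets, and the count of 9 is uncertain as a count of separate genes.

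The other histone classes varied less. Of 9 H2B genes kept, 5 had an SD of at least 0.5 (background 11.7%), with a median SD of 0.53. Without SKG replicate 6 their median SD was 0.25. Their median deviation was -0.89 in SKG replicate 6 and between 0.04 and 0.52 in the other 4, and 7 of the 9 were highest in SKG replicate 4 and 8 lowest in SKG replicate 6 or 7. None of 5 H3 genes and 1 of 6 H4 genes reached an SD of 0.5. With so few genes these counts cannot be told apart from the background of 11.7%. Their median SDs were 0.21 and 0.31, against 0.268 for all kept genes. The H4 median deviations had the signs of the H2A ones at a smaller size, with 0.16, 0.23, -0.38, -0.29 and 0.14 in SKG replicates 4 to 8, and all 6 H4 genes were lowest in SKG replicate 6 or 7. None of the 17 kept genes of DNA replication and mitosis reached an SD of 0.5 (background 11.7%). Mcm4, a subunit of the replicative helicase, read 9.12, 9.30, 9.55, 9.95 and 9.66, and Top2a, a topoisomerase of dividing cells, read 7.82, 7.78, 7.03, 8.12 and 7.99. The H2A order (high in SKG replicate 4, low in SKG replicates 6 and 7) was seen in neither gene. Of the 17, Tk1 and Cdk1 were highest in SKG replicate 4, and both were lowest in SKG replicate 6. Across the 17, 6 were highest in SKG replicate 7 and 5 in SKG replicate 8, while 7 were lowest in SKG replicate 6. The list's median deviation was 0.002, -0.16, -0.055, 0.14 and 0.16 in SKG replicates 4 to 8. The part of cell division in the histone spread was not tested.

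**Figure D3:**
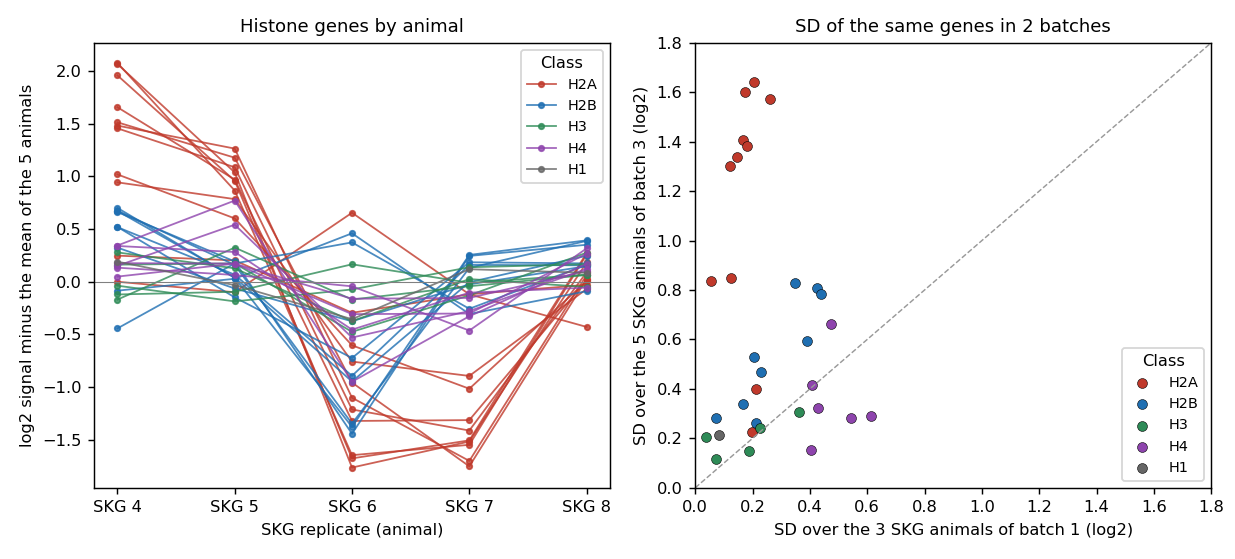
Left, each line is 1 kept histone gene, plotted as log2 signal minus its mean over the 5 animals (y axis) in SKG replicates 4 to 8 (x axis), coloured by class. Right, the SD of the same genes over the 5 SKG animals of batch 3 (y axis) against the SD over the 3 SKG animals of batch 1 (x axis), both log2, with the line of equal SD dashed; 9 H2A genes lie above 0.8 on the y axis and below 0.3 on the x axis.

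The SKG ilea of batch 1, which did not choose the genes, did not show this spread. Over those 3 animals H2ac15 had an SD of 0.20, H2ac23 of 0.12 and H2ac12 of 0.26. The 11 H2A genes had a median SD of 0.17 in batch 1, against 0.20 for all kept genes there. None reached 0.5, as 8.27% of all genes in batch 1 did. Batches were normalised separately, so only the spread within each was read. Signals of batch 1 sit on shifted rows and were first matched back to their probes by comparison with the arrays outside batch 1.

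The promoters of these genes are shown because the genes moved together, with 2 steadier H2A genes for comparison. CCAAT, the box bound by the factor NF-Y, was searched on both strands of the RefSeq promoters (300 bases around the start, mostly before it, build GRCm38.p6). It stood in all 11 H2A promoters and in 37.9% of all 27025 promoters, and it was chosen after the variable genes were known. The 120 bases before the start are printed 5′ to 3′, with CCAAT or its reverse complement in capitals. They lie at chr13:21753913-21754032 (-) for H2ac15, chr13:23574261-23574380 (+) for H2ac7, chr13:22035644-22035763 (-) for H2ac12, chr13:21810247-21810366 (+) for H2ac23, chr3:96245377-96245496 (+) for H2ac18 and chr13:23571221-23571340 (-) for H2ac8.
H2ac15: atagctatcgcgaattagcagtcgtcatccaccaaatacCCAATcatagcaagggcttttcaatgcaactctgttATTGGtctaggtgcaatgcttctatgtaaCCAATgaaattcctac
H2ac7: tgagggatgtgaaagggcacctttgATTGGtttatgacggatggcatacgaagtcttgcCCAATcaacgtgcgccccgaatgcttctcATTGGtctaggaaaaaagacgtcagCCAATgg
H2ac12: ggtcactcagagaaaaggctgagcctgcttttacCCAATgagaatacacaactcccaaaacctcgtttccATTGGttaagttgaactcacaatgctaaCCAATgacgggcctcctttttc
H2ac23: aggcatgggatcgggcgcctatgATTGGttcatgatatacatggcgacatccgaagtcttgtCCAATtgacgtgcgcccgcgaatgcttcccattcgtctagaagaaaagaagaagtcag
H2ac18: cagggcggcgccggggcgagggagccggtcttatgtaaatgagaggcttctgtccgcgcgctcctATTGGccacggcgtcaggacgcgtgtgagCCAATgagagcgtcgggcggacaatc
H2ac8: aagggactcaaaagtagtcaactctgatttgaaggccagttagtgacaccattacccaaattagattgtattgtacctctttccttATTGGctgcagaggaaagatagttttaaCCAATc
The first 4 belong to genes with SDs of 1.30 to 1.64, the last pair to H2ac18 (0.40) and H2ac8 (0.23). All 6 hold the box, so its presence in this window does not separate the variable H2A genes from the steadier ones.

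Genes induced in the epithelium by microbes were the next profile, high in SKG replicates 5 and 8. Fut2, the fucosyltransferase that adds fucose to surface sugars, had the second largest SD, 1.63, and read 5.65, 8.95, 7.09, 6.38 and 9.40 in SKG replicates 4 to 8. SKG replicate 8 was the highest and SKG replicate 4 the lowest, a 13.5-fold spread. The genes nearest to Fut2 in profile were Socs3, the feedback inhibitor of STAT3 signalling, with a root mean square difference of 0.58, the goblet cell antibacterial protein Retnlb (0.80) and Erdr1 (0.81). Socs3 read 7.59, 9.48, 8.54, 7.91 and 9.89, and Retnlb read 5.79, 7.28, 5.54, 4.89 and 7.14. In all 3 the highest values belonged to SKG replicates 5 and 8.

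Of 13 kept genes on the list of microbe-induced defence, 7 had an SD of at least 0.5 (background 11.7%), and without SKG replicate 6 the number was again 7 (background 2.56%). Nos2, the inducible nitric oxide synthase, read 6.59, 8.07, 4.98, 5.60 and 7.86. The antibacterial lectin Reg3g read 12.21, 13.18, 11.60, 12.13 and 12.91, the acute-phase protein Saa1 7.36, 8.33, 8.10, 6.77 and 8.60, and the cytokine Il18 7.08, 7.96, 6.65, 7.31 and 8.75. In each of these 4 genes SKG replicates 5 and 8 held the top 2 values. Sprr1a, with an SD of 0.62, did otherwise, with 6.11 in SKG replicate 6 as its highest value and 4.60 in SKG replicate 8 as its lowest. Reg3b, a lectin related to Reg3g, read 13.40 to 13.64 and had the smallest SD of the list, 0.10. The list's median deviation was 0.37 in SKG replicate 8, 0.34 in SKG replicate 5, -0.11 in SKG replicate 4, -0.16 in SKG replicate 6 and -0.52 in SKG replicate 7.

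The profile recurred among genes with no place on that list. Eef2, the ribosomal translocase, read 6.49, 7.88, 4.86, 5.55 and 8.07, and its nearest gene was Nos2, 0.14 away, followed by the brush border myosin Myo1a (0.45) and the predicted gene Gm8909 (0.45). The Eef2 probe was dim, with a mean raw signal of 221, against array medians of 98.5 to 105.6. Whether it reads the main Eef2 transcript was not tested. Scand1, a SCAN domain protein, read 8.40, 10.03, 7.84, 6.59 and 9.63, and ORF61 read 8.88, 9.70, 8.24, 7.21 and 9.93. SKG replicates 5 and 8 were again the highest, and SKG replicate 7 or SKG replicate 6 the lowest. Pdpk1, a kinase upstream of AKT, had an order of its own, at 8.72, 7.35, 7.19, 4.94 and 6.52, and a second probe of Pdpk1 had an SD of 1.27 with the same highest and lowest animal.

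In batch 1 the defence genes also varied between SKG animals, and Eef2 and Scand1 varied less. Fut2 had an SD of 1.64 over those 3 animals, Socs3 of 1.11 and Saa1 of 1.83. Of 12 genes of the list that could be read there, 8 had an SD of at least 0.5, against 8.27% of all genes in batch 1. Nos2 had an SD of 0.65 there, Eef2 of 0.38, Scand1 of 0.14, ORF61 of 0.05 and Pdpk1 of 0.18.

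MHC class II genes varied together, high in SKG replicate 5 and low in SKG replicate 4. These genes present peptides to helper T cells and are made by dendritic cells, B cells and, under interferon gamma, by enterocytes. Of 9 kept, 7 had an SD of at least 0.5 (11.7% of all kept genes did), and without SKG replicate 6 the number was 8 (background 2.56%), so the list's spread did not rest on that animal. H2-DMb1, a chain of the peptide-loading chaperone, read 7.21, 10.22, 9.91, 8.36 and 7.84 in SKG replicates 4 to 8, an 8.08-fold spread. H2-Ab1, a chain of the presenting molecule, read 8.85, 11.34, 10.67, 9.49 and 9.49. Cd74, the invariant chain, read 11.59, 12.91, 12.81, 12.69 and 12.09, and Ciita, the transactivator of the class II genes, read 5.86, 7.14, 7.06, 5.91 and 6.24. In all 4, SKG replicate 5 was highest, SKG replicate 6 next and SKG replicate 4 lowest. H2-Eb1, another chain of a presenting molecule, read 9.37, 11.24, 10.52, 9.77 and 9.95, in which SKG replicates 5 and 6 were again the highest. The protease Ctss had the smallest SD of the list, 0.26.

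Lymphocyte genes were low in SKG replicate 4 as well, but their highest animal was mostly SKG replicate 6. The B cell list's median deviation was 0.91 in SKG replicate 6, 0.11 in SKG replicate 5, -0.18 in SKG replicate 7, -0.21 in SKG replicate 8 and -0.56 in SKG replicate 4. Of 9 kept B cell genes, 5 had an SD of at least 0.5 (background 11.7%), and without SKG replicate 6 none had (background 2.56%). The range of the list's median deviation, 1.47, was 0.48 without background correction and 0.84 with an offset of 50. Cd79b, a signalling chain of the B cell receptor, read 6.76, 7.51, 8.82, 7.28 and 7.33, and Blk, a kinase of B cells, read 5.11, 5.87, 7.08, 5.75 and 5.40. The summed signal of the 3 kept defining B cell markers was 600 in SKG replicate 6, against 168 to 266 in the other 4, and Cd79a and Ms4a1 were not kept. Of 10 kept T cell genes, 4 had an SD of at least 0.5 and 1 without SKG replicate 6, against the same backgrounds. The T cell range was 1.14, but 0.46 without background correction, and in the authors' deposited table SKG replicate 5 was the list's highest animal, with a range of 0.25. Ccl5, a chemokine of activated T cells, read 5.37, 7.91, 7.34, 6.26 and 7.00, so that SKG replicate 5 was the highest and SKG replicate 4 the lowest. The part of lymphoid tissue in the class II spread was not tested: the B cell markers were highest in SKG replicate 6, whereas the class II genes were highest in SKG replicate 5.

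Interferon-response genes were high in SKG replicate 5. Of 28 kept, 6 had an SD of at least 0.5 over the 5 animals (background 11.7%), and 6 had one without SKG replicate 6 (background 2.56%). The immunity-related GTPase Igtp read 7.38, 9.33, 7.77, 7.23 and 7.31, and its relative Irgm2 read 8.40, 10.00, 8.70, 8.60 and 8.51. Both stood at least 1 log2 unit higher in SKG replicate 5 than in any other animal. Rsad2, an antiviral enzyme, read 8.10, 8.42, 8.42, 6.94 and 7.05. The list's median deviation was 0.46 in SKG replicate 5 and between -0.18 and 0.01 in the other 4. This range of 0.64 was 0.27 without background correction and 0.21 in the authors' deposited table.

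The promoters of Igtp and Irgm2 are shown as those of the genes with this profile. The core of the interferon-stimulated response element (GAAA, 2 bases of any kind, GAAA), searched on both strands, stood in 11 of the 20 list promoters found in RefSeq (55.0%) and in 3.49% of all promoters. The 120 bases before the start lie at chr11:58199436-58199555 (+) for Igtp and chr11:58214857-58214976 (+) for Irgm2 (GRCm38.p6), with the motif in capitals.
Igtp: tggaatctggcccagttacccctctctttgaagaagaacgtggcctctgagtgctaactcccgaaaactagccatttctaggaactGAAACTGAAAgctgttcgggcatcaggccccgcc
Irgm2: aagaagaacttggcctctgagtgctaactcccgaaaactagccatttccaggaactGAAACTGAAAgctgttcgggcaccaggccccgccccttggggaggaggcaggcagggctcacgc
Both hold the same 10 letters in near-identical surroundings, and the probes of such related genes can bind each other's targets. The motif also stood in the promoters of genes that varied less, such as Gbp3 (SD 0.17) and Irgm1 (SD 0.24).

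In batch 1, MHC class II was again among the most variable lists. H2-DMb1 had an SD of 1.93 over its 3 animals, H2-Ab1 of 1.87 and Cd74 of 1.50. The list's median SD was 1.41 and 7 of the 8 genes read there reached 0.5 (8.27% of all genes in batch 1 did). Its median deviation was 1.61 in SKG replicate 2, -0.61 in SKG replicate 3 and -1.06 in SKG replicate 1, so there too 1 animal was far above the others. Igtp and Irgm2 had SDs of 0.67 and 0.49 there. Of the B cell list only 1 gene could be read in batch 1.

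Genes of fat cells had the widest range of the 37 lists, 2.27, and SKG replicate 6 was the highest animal. This rank depended on that animal and on the processing. Without SKG replicate 6 the adipocyte range was 0.68, against 1.83 for MHC class II. With no filter it was 1.01 against 1.30, and the authors' deposited table gave 0.41 against 1.29. Of 9 kept adipocyte genes, 7 had an SD of at least 0.5 (background 11.7%), and 4 without SKG replicate 6 (background 2.56%). The list's median deviation was 1.40 in SKG replicate 6, -0.03 in SKG replicate 8, -0.17 in SKG replicate 5, -0.42 in SKG replicate 7 and -0.87 in SKG replicate 4. The hormone Adipoq read 6.40, 7.23, 9.21, 7.43 and 7.60 in SKG replicates 4 to 8, and the adipose protease Cfd read 9.94, 10.82, 12.40, 10.41 and 11.42. Scd1, the stearoyl-CoA desaturase, read 8.94, 9.87, 12.28, 9.46 and 9.68, and the lipogenic regulator Thrsp read 6.56, 6.78, 9.04, 5.64 and 6.04. In all 4 genes SKG replicate 6 was above every other animal, and in Adipoq, Cfd and Scd1 SKG replicate 4 was the lowest.

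Lpl and Cidec had the same highest animal. Lpl, the lipase of fat capillaries, read 8.25, 8.96, 10.57, 8.99 and 8.85, and the lipid droplet protein Cidec read 7.53, 7.80, 9.34, 7.82 and 7.56. Leptin (Lep), chosen after its values were seen, read 4.83, 5.21, 7.37, 5.33 and 4.77. Pnpla2, a triglyceride lipase made in many tissues, had an SD of 0.18, and Lipe, the hormone-sensitive lipase, read 5.87, 5.71, 5.40, 5.15 and 5.80, highest in SKG replicate 4. The summed signal of the 3 kept adipocyte markers was 6642 in SKG replicate 6, against 1248 to 3124 in the other 4, and Fabp4 and Plin1 were not kept. Whether attached mesenteric fat or the cells of the wall carried these transcripts was not tested.

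The adipocyte list was also the most variable of those read in batch 1 and in the BALB/c pair of batch 2. Over the 3 SKG animals of batch 1 its median SD was 1.53, with Adipoq at 1.69 and Scd1 at 1.65. There, 7 of 8 genes reached 0.5 (8.27% of all genes in batch 1 did). In that batch SKG replicate 3 had a median deviation of -1.77, against 0.94 and 0.86 in SKG replicates 2 and 1. The 2 BALB/c ilea of batch 2 differed by a median of 1.37 over the list, against 0.19 over all kept genes.

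**Figure D4:**
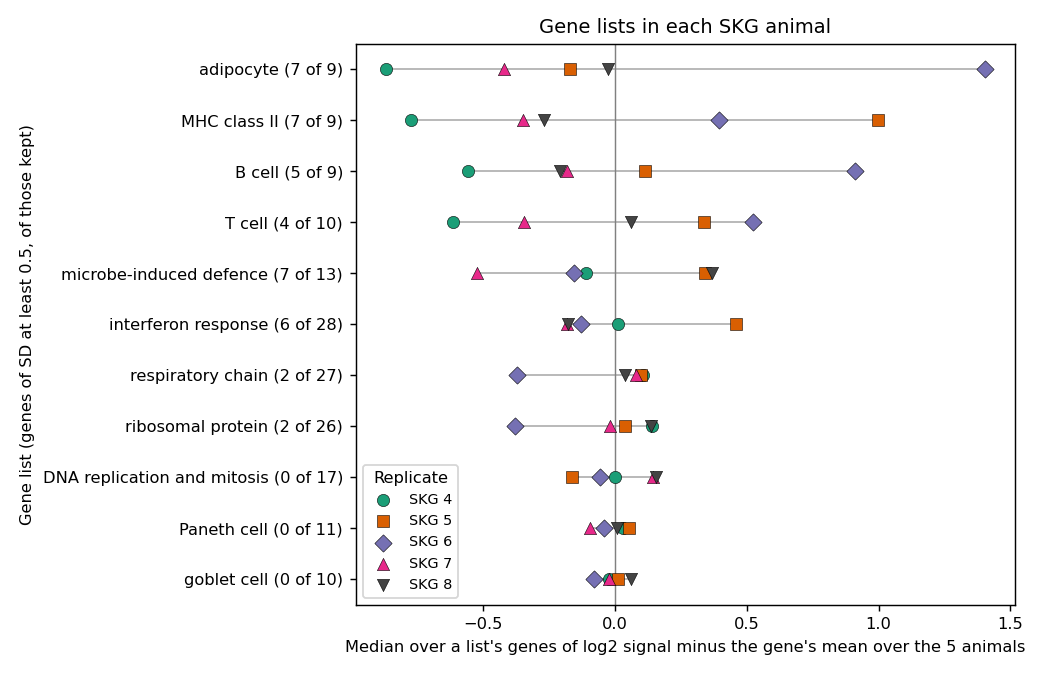
Each symbol is 1 SKG animal, placed by the median over a gene list of the log2 signal minus the gene's mean over the 5 animals (x axis); the lists run down the page with the number of genes of SD at least 0.5 among those kept. The adipocyte list spans 2.27, with SKG 6 highest and SKG 4 lowest, while the Paneth and goblet cell lists span 0.15 and 0.14.

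Among the 30 most variable genes, those in which SKG replicate 6 alone was low included Cyp3a11, Cyp3a25, Calr and Lsr. Cyp3a11, a cytochrome P450 that oxidises drugs and bile acids, read 5.57 in SKG replicate 6 and 7.88 to 8.82 in the other 4. Its relative Cyp3a25 read 7.23 in SKG replicate 6 and 9.67 to 10.12 in the other 4, and without that animal its SD was 0.20. Calr, the endoplasmic reticulum chaperone calreticulin, read 5.55 in SKG replicate 6 and 8.05 to 8.78 in the other 4. In all 3 the value of SKG replicate 6 lay outside the range of the others by more than that range. Of 12 kept genes of xenobiotic metabolism, 4 had an SD of at least 0.5 (background 11.7%), and none without SKG replicate 6 (background 2.56%). Not all such genes were low in this animal: the glutathione transferase Gsta1 was highest in SKG replicate 6, at 8.05, and the carboxylesterase Ces1e read 6.22 in SKG replicate 6 and 5.40 to 5.56 in the other 4. Hsp90b1, another chaperone of the endoplasmic reticulum, read 12.05 in SKG replicate 6 and 11.02 to 11.67 in the other 4.

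Epithelial genes with the same direction were Lsr, a lipoprotein receptor of cell junctions, Myo1a, and the brush border enzyme sucrase-isomaltase (Sis). Lsr read 4.75 in SKG replicate 6 and 6.44 to 8.44 in the other 4, and Sis read 11.61 in SKG replicate 6 and 12.75 to 13.06 in the other 4. Not every brush border gene went this way: the peptidase Xpnpep2 read 13.05 in SKG replicate 6 and 12.03 to 12.42 in the other 4, and Anpep 13.82 against 13.51 to 13.63. The tetraspanin Tspan3 read 8.22 in SKG replicate 6 and 10.37 to 11.17 in the other 4 by its brighter probe, but its second probe had an SD of 0.28 and read 6.87 in SKG replicate 6, within the range of the other 4. Ceacam1, an adhesion molecule of epithelia, read 8.52 in SKG replicate 6 and 10.07 to 11.28 in the other 4, and its second probe had an SD of 1.20 with the same highest and lowest animal. The receptor phosphatase Ptprf, Gm1123 and Gm5560 were the other genes of the 30 with their lowest value in SKG replicate 6 and no place in the groups above.

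Small shifts of large gene groups went with them. The 26 kept ribosomal protein genes had a median deviation of -0.38 in SKG replicate 6, against -0.02 to 0.14 in the other 4, and the 27 respiratory chain genes -0.37 against 0.04 to 0.10. In each list 2 genes had an SD of at least 0.5, below the background of 11.7%, and none without SKG replicate 6. All kept genes had a median deviation of 0.05 in SKG replicate 6 and of -0.02 to 0.01 in the other 4. The summed signal of the 4 kept enterocyte markers was 22971 in SKG replicate 6, against 26935 to 27888 in the other 4. The markers did not move alike: Sis and Vil1 were lowest in SKG replicate 6, Anpep was highest there, and Apoa4 lay within the range of the others.

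Among the 30 most variable genes, those in which SKG replicate 6 alone was high were, besides Scd1 and Thrsp, Prr15, Hoxb4, LOC100047674 and BC050811. Prr15, a proline-rich protein of the gut epithelium, read 11.53 in SKG replicate 6 and 7.76 to 9.38 in the other 4. The homeobox gene Hoxb4 read 8.98 in SKG replicate 6 and 6.13 to 7.06 in the other 4, and LOC100047674 read 8.72 against 5.66 to 6.30. Ddx3y, a helicase gene of the Y chromosome, was detected on all 5 arrays and read 9.63 in SKG replicate 6 and 7.64 to 8.39 in the other 4. Xist, the RNA of the inactive X chromosome, read 6.48 to 6.69 in the 5 animals.

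In batch 1, the enzymes low in SKG replicate 6 were also variable, with an SD of 1.37 for Cyp3a11, 0.99 for Cyp2c65 and 0.78 for Cyp3a25. Calr had an SD of 0.54 there, Lsr of 0.58, Prr15 of 0.42 and Hoxb4 of 0.50. The ribosomal protein and respiratory chain lists had median SDs of 0.17 and 0.14 in batch 1, below the 0.20 of all genes.

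The steadiest genes were chosen among those with a mean at or above the median of the kept genes. All 15 had SDs below their own bead errors, the highest SD being 0.0497, so their order among themselves is not measured. They included Zg16, the iron-sulphur cluster scaffold Iscu, the matrix protein Tgfbi, the endoplasmic reticulum lectin Os9, the brush border cadherin Cdhr5, the SUMO protease Senp7, the methionine adenosyltransferase Mat2a, LOC100048187, Sel1l3, Rps14, Tprgl, the acetyl-CoA synthetase Acss2, the dolichol kinase Dolk and the GDP-fucose synthase Gfus. Iscu read 11.41, 11.44, 11.46, 11.49 and 11.45 in SKG replicates 4 to 8, and Cdhr5 read 13.67, 13.72, 13.63, 13.65 and 13.68. Of all kept genes, 430 (5.01%) had an SD below their bead error.

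None of 11 Paneth cell genes and none of 10 goblet cell genes had an SD of at least 0.5 (background 11.7%). Of these, the Paneth cell genes Defa5, Defa26, Defa29, Defa31, Pla2g2a and Guca2b and the goblet cell genes Zg16, Spink4 and Muc13 had means of 13.14 to 13.71, where signals have little room to differ. Defa26, a Paneth cell defensin, read 13.63, 13.65, 13.62, 13.53 and 13.56. Lyz1, the Paneth cell lysozyme, had the largest SD of its list, 0.42, and read 12.21 in SKG replicate 6 and 12.92 to 13.32 in the other 4. The goblet cell trefoil peptide Tff3 read 12.11, 12.26, 12.13, 11.76 and 11.96. With each array scaled to its 75th percentile in place of quantile normalisation, the Paneth list's median deviation spanned 0.46 and the goblet list's 0.25, against 0.15 and 0.14 here. Of 14 macrophage and myeloid genes none reached 0.5, but their median SD was 0.30, above the 0.268 of all genes, and 8 of the 14 were highest in SKG replicate 8. Hba-a1, a globin chain of red cells, read 10.99, 10.12, 9.47, 8.71 and 9.62.

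The Paneth list had a smaller spread in batch 3 than in batch 1. Its median SD was 0.16 over the 5 animals of batch 3 and 0.56 over the 3 of batch 1. In batch 1, 8 of 11 genes reached 0.5 (8.27% of all genes there did), and Lyz1 had an SD of 2.63. Smooth muscle genes had a median SD of 0.36 in batch 3 and 0.78 in batch 1, and enzymes of the pancreatic type 0.31 and 0.73. These differences between batches were not tested.

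**Figure D5:**
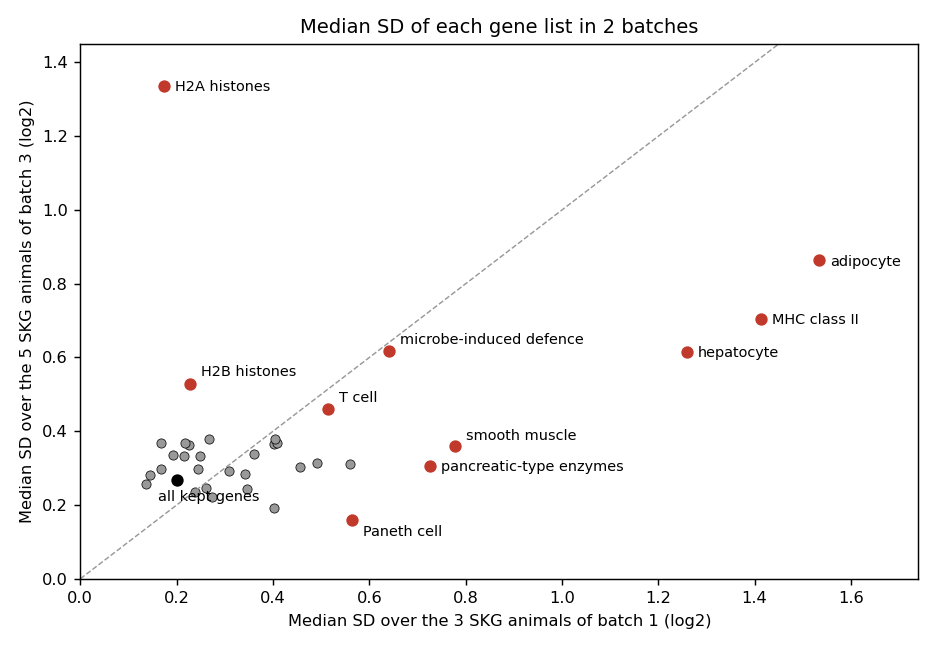
Each point is a gene list (H2A and H2B histones and all kept genes included), placed by the median SD of its genes over the 3 SKG animals of batch 1 (x axis) and over the 5 of batch 3 (y axis), both log2, with the line of equal SD dashed. H2A histones lie at 1.34 in batch 3 and 0.17 in batch 1, while the adipocyte and MHC class II lists are high on both axes.

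Across all genes the SDs of batch 3 and batch 1 were weakly related. The genes with an SD of at least 0.5 in batch 3 had a median SD of 0.264 in batch 1, and 20.8% of the 832 that could be read there reached 0.5, against 8.27% of all 7028. Those with such an SD without SKG replicate 6 had a median of 0.330 there, and 30.7% of 189 reached 0.5. The 15 steadiest had a median of 0.168, against 0.200 for all genes, and none of the 13 read reached 0.5. The rank correlation of the SDs across the 7028 genes was 0.21 and is a description, since genes are not independent. Of the 1007 variable genes, 204 had a second kept probe, which had its highest value in the same animal in 119 and an SD of at least 0.5 in 76 (37.3%).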

How the data were processed

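Total RNA of terminal ileum was amplified and hybridised to Illumina MouseRef-8 v2.0 bead arrays, per the labels' protocols. Per the file headers, the authors' files hold the mean bead intensity per probe, the number and spread of its beads, and a detection score (a fraction from 0 to 1), exported from GenomeStudio 1.9.0 without normalisation, with no statement on background subtraction. Groups and batches came from the labels, which call the samples separate mice.

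With limma 3.58.1 in R 4.3.3, the 5 arrays were background-corrected by nec (normexp from the detection scores, offset 16), then quantile normalised, and log2 was taken. Probes with detection of at least 0.95 on all 5 were kept, and a gene was its kept probe with the highest mean. File names were matched to RefSeq symbols: 14309 of 18138 directly, 2885 through an older name. Bead error is the standard error over a probe's beads on the log2 scale.

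There is 1 group in 1 batch, so nothing was tested. Genes named are the 20 brightest, the 30 of largest SD, the 15 of largest SD without SKG replicate 6, the 15 steadiest, up to 4 most and 2 least variable members of each of 37 lists, and the nearest profiles of the 5 most variable genes. A few genes that the rule names are not reported here. The rule does not cover Cd74, Ciita, Reg3g, Saa1, Sprr1a, Lpl, Cidec, Lep, Xpnpep2, Gsta1, Ces1e, Mcm4, Gbp3, Irgm1, Tff3, Defa5 and Pla2g2a, which were chosen after their values were seen, nor the histone classes, grouped after the variable genes were known. Tk1 and Cdk1 were likewise chosen after their values were seen. The members and lists were chosen with earlier results of these data known.

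In batch 1 the signal rows are out of step with the probe list. They were realigned by stretches of rows to the arrays outside batch 1, SKG and BALB/c. This placed 83.1% of 25697 rows in 180 stretches. It brought the rank correlation of signals to 0.83 to 0.89, against 0.08 to 0.10 before. Rows were placed by this same agreement, so its rise does not show that each row was placed correctly. Bead numbers, which the placement did not use, had a correlation of 0.56 with those of the other arrays over the placed rows. Before, over all rows, it was 0.006. The realignment uses the levels of those arrays and not their spread, and genes on rows not placed were not read in batch 1. The SD step was checked on simulated data.

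For 5045 probes the authors also deposited processed log2 values, with column medians of 0.02 to 0.07 over these 5 arrays. Their centring and scale are not stated, so they served as an alternative only.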

Additional observations from a re-analysis of the deposited data

Results flagged for a closer look

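A value was looked at again where the highest or lowest of the 5 animals lay apart from the others, its gap to the nearest being over 0.71 of the whole range. This was computed for 128 values (named genes, gene lists and array measures), and 18 were flagged. For independent values of a normal distribution, chance gives about 1 in 20. That rate does not apply here, since many of the 128 were chosen on these same arrays. Over all 8587 kept genes, 1119 (13.0%) had such a value, and in 947 of these (84.6%) it was SKG replicate 6. Its share of the squared deviation was itself apart from those of the other 4 (ratio 0.915).

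SKG replicate 6 was the highest in Scd1 (0.722) and LOC100047674 (0.790). It was the lowest in Cyp3a25 (0.845), Gm1123 (0.812), Calr (0.775), Gm5560 (0.758) and Tspan3 (0.731). Among the brightest genes it was the lowest in Dbi (1), where the other 4 shared the top value, Ubb-ps (0.935), Fth1 (0.791), Guca2a (0.788) and Eef1a1 (0.726). Of the gene lists, it was the lowest for the respiratory chain (0.860) and for lipid uptake and chylomicrons (0.732), whose median deviation was -0.25 in SKG replicate 6 and 0.01 to 0.11 in the other 4.

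SKG replicate 5 was the highest in the interferon-response genes Irgm2 (0.810) and Igtp (0.741). SKG replicate 4 was the lowest in Mzb1, a plasma cell chaperone (0.750).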

How the results depend on the processing

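No paired analysis was possible because the results come from no test within 1 group. The 30 most variable genes, the 20 brightest and the share of variable genes led by SKG replicate 6 kept within 1.5 times or the counting interval of their values under an offset of 50, scaling to the 75th percentile, cyclic loess, normalisation with all 11 arrays and detection of at least 0.99. Genes of SD at least 0.5 numbered 286 without background correction, 545 with an offset of 50 and 175 of those in the authors' deposited table. The median SD was 0.162 without background correction, 0.164 with no filter and 0.124 in the authors' deposited table. Lists with a range of at least 0.5 numbered 15, but 4, 8, 6 and 8 under no background correction, the offset of 50, no filter and that table. No filter kept 25697 probes, and 5045 kept probes are in the table. Of the 30 most variable genes, 18 remained without background correction and 2 were among the 30 most variable in the authors' deposited table, which holds 10 of them, each with the same highest animal as here. Of the 15 steadiest, 3 remained with 75th percentile scaling, 9 with loess, 9 with no filter and 0 in that table, which rests on another scale. The cause of these moves was not tested. Leaving out each replicate gave 226 to 1344 variable genes, the lowest without SKG replicate 6, median SDs of 0.182 to 0.282, 10832 to 11281 probes, SKG replicate 6 as farthest in 81.9% to 88.0%, and 9 to 16 lists. It left 15 to 27 of the 30, 1 to 4 of the 15 steadiest and 17 to 19 of the 20 brightest. Apart from the replicates left out, SKG replicate 6 stayed the highest animal of the adipocyte list and the lowest of the ribosomal protein and respiratory chain lists, and SKG replicate 5 the highest of the MHC class II and interferon lists, under every alternative here. Probes near background and at the top of the scale limit what can be seen.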

Other observations

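Some lists held a gene far from its list. Angptl4, a lipase inhibitor induced by fasting, read 8.98, 8.04, 9.82, 9.83 and 8.00 in SKG replicates 4 to 8, so that SKG replicates 6 and 7 were the highest. The immediate early gene Fos read 7.70 in SKG replicate 4 and 8.94 to 9.46 in the other 4, and the stress factor Atf3 of the same list had an SD of 0.05. Of 13 circadian clock genes, 2 had an SD of at least 0.5, a share near the 11.7% of all kept genes. These were Tef and Bhlhe40, both highest in SKG replicate 6, and Clock had an SD of 0.13.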
